A study of Homo sapiens with 3 samples.

Results

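Cytochrome P450 (CYP) genes were described in HepG2 cells, an established human hepatocellular carcinoma line that carries wild-type p53, 30 h after treatment with etoposide, a topoisomerase II poison used as an anticancer drug. The members were all gene names on the array that start with CYP followed by a family number, a subfamily letter and a gene number, without CYP3A4, CYP3A5 and names of pseudogenes, and 52 of 27274 gene names met this rule. The rule works on names and not on signals, and where a gene had several probes, the probe with the highest mean log2 signal over the arrays stood for it. There was 1 array for each of 3 conditions, namely cells labeled as untreated (0 μM, called control, and named DMSO in the tables of the study, so that it may have held the solvent of the drug), cells given 10 μM etoposide (low dose) and cells given 100 μM etoposide (high dose). The study set a dose chosen for senescence against a dose chosen for apoptosis. All cells were of the same line and were harvested at the same time point, and 1 culture stood for each condition, so the differences below could not be checked against replicates and no p-value was calculated.

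P450 enzymes are haem proteins that insert 1 oxygen atom into a substrate. In the liver they oxidize drugs and other xenobiotics, and they also make and break down cholesterol, bile acids, steroid hormones, vitamin D, retinoic acid and fatty acids. Most of them sit in the endoplasmic reticulum and receive electrons from P450 oxidoreductase (POR), whereas a few sit in mitochondria and are supplied through ferredoxin reductase (FDXR) and ferredoxin (FDX1). Hepatoma lines are known to keep only part of the P450 complement of the liver.

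The signals given below are probe intensities as deposited, and ratios between arrays were taken after each array had been scaled to its own 75th percentile. A gene was called changed when its scaled signals differed more than 2-fold and the brighter one was well above background in the flag of the scanner software. The error given with a log2 ratio is the standard deviation (SD) between repeated spots of probes of similar signal on the same arrays, which leaves out the spread between cultures. For a probe read by several spots, it was divided by the square root of their number. Where 3 signals are listed for a gene, they are those of control, low dose and high dose in this order, and where a pair of ratios is listed, the low dose over control comes first and the high dose over control follows. The 75th percentile was between 432.4 and 536.4 on the 3 arrays, the lowest signal flagged as well above background was between 19.5 and 22.7, and no spot was saturated. All 10 hepatocyte markers examined (ALB, AFP, APOA1, APOB, TTR, SERPINA1, TF, FGB, AHSG and APOH) were well above background on all arrays. Of 11 markers of other cell types, the fibroblast genes COL1A1, COL3A1, DCN and LUM were not well above background on any array. The endothelial or leukocyte genes PECAM1, CDH5, PTPRC, CD3E, CD14 and CD68 were well above it on all arrays, and VWF on 1.

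Of the 52 CYP genes, 26 were well above background on all 3 arrays and the other 26 on none of them. Among all gene names, 55.7% were well above background on all arrays and 36.8% on none. No CYP gene crossed the background limit in either direction with dose, whereas 4.58% of all genes were above it on 1 array and 2.99% on 2 arrays. The CYP genes not above background included CYP1B1, CYP2A7, CYP2C8, CYP2C18, CYP2C19, CYP2E1, CYP2F1 and CYP3A43 among the xenobiotic enzymes, and CYP7A1, CYP7B1 and CYP46A1 among the bile acid enzymes. They also included CYP11B1 and CYP11B2, which make cortisol and aldosterone, and all 3 retinoic acid hydroxylases (CYP26A1, CYP26B1 and CYP26C1). The fatty acid enzymes CYP2J2, CYP2U1, CYP4A22, CYP4B1, CYP4F22, CYP4V2, CYP4X1 and CYP4Z1 and CYP27C1 were also in this group. For these genes no ratio was given.

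At the low dose, none of the 26 detected CYP genes was more than 2-fold above or below control on its brightest probe. A second probe of CYP4F2, not used for the calls, was 5.28 times control. Over all genes tested, 3.37% were called higher and 1.57% lower at this dose. On the brightest probes the CYP ratios ran from -0.50 to 0.84 on the log2 scale with a median of 0.14, against a median of -0.03 over all genes, and 16 of the 26 were above 0. At the high dose, 7 CYP genes were called higher (CYP4F3, CYP8B1, CYP21A2, CYP19A1, CYP3A7, CYP4F2 and CYP11A1), which is 26.9% of the 26, and none was called lower. Over all genes tested, 6.74% were called higher and 3.63% lower. The median CYP ratio at the high dose was 0.62, against 0.09 over all genes, and 23 of the 26 were above 0 (88.5%, against 57.3% of all genes). Between the 2 doses, CYP21A2 and CYP8B1 were called lower in low-dose than in high-dose cells and none was called higher, where the calls over all genes were 3.94% lower and 3.64% higher.

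**Figure D1:**
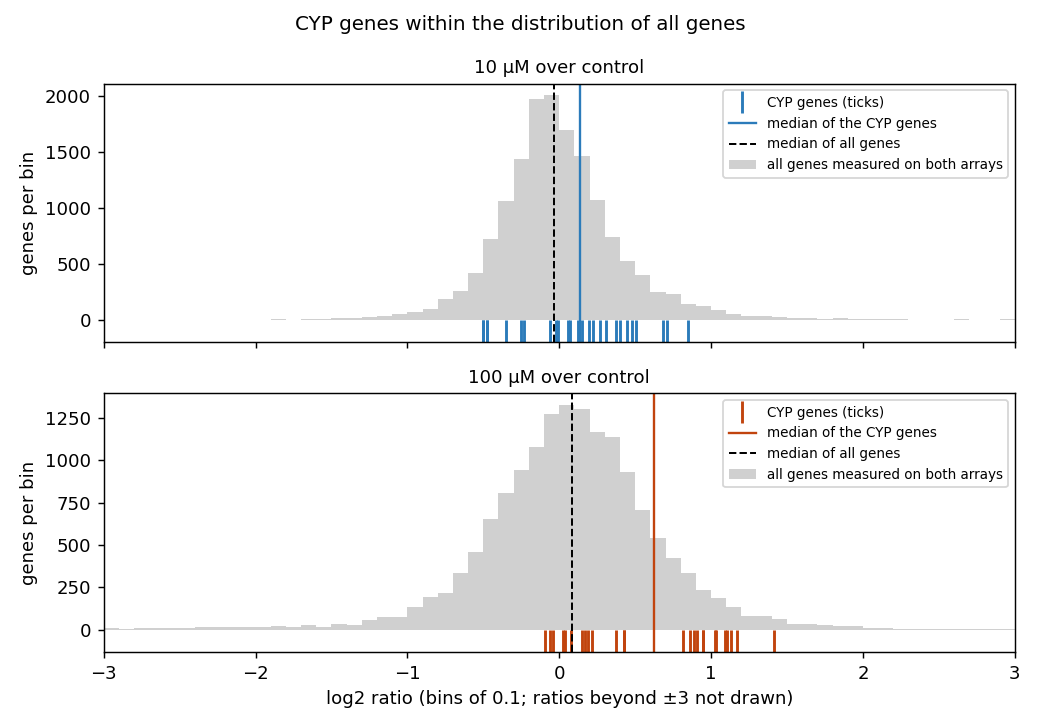
Distribution of log2 ratios over all genes well above background on both arrays (gray bars, genes per bin of 0.1), with the 26 CYP genes as ticks, for the low dose (upper panel) and the high dose (lower panel) over control. At the low dose the CYP median (colored line) is 0.14 and that of all genes (dashed line) is -0.03, and at the high dose the CYP median is 0.62 and that of all genes 0.09.

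The size of these ratios depended on how the arrays were scaled to each other. With no scaling the median of all genes at the high dose was -0.16, with scaling to the array median it was -0.20 and with scaling to spike-in controls it was -0.09. In those settings the CYP median was 0.37, 0.33 and 0.45. These settings shift every gene of an array by the same amount. The distance of the CYP median from that of all genes was therefore fixed under them. In settings that can change it, the CYP and all-gene medians were 0.49 and 0.03 with quantile normalization. They were 0.48 and 0.08 with the mean over the probes of a gene and 0.45 and 0.11 with another background correction (normexp). CYP4F3 was called higher at the high dose under all 6 scalings tried, and it was the only CYP gene called with no scaling or with the array median. The split of calls over all genes also turned with the scaling, from 1145 higher and 617 lower to 634 higher and 1071 lower with no scaling. The median ratio of all genes at the high dose also differed with signal. Among the 3848 genes with a control signal between 100 and 400, the median ratio at the high dose was 0.12 and 4.73% were called higher, and the 9 CYP genes in that range had a median of 1.09 with 6 called. Among the 1401 genes with a control signal between 20 and 50, the median was 0.51 and 17.6% were called higher, and the 5 CYP genes there had a median of 0.43 with 0 called. Between 50 and 100, the median was 0.28 with 8.39% called, and that of 6 CYP genes was 0.56 with 1 called. From 400 to 2000, 3 CYP genes had a median of 0.02 with 0 called, against -0.004 and 2.35%. Above 2000, 3 CYP genes had a median of 0.04 with 0 called, against -0.07 and 1.52%.

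**Figure D2:**
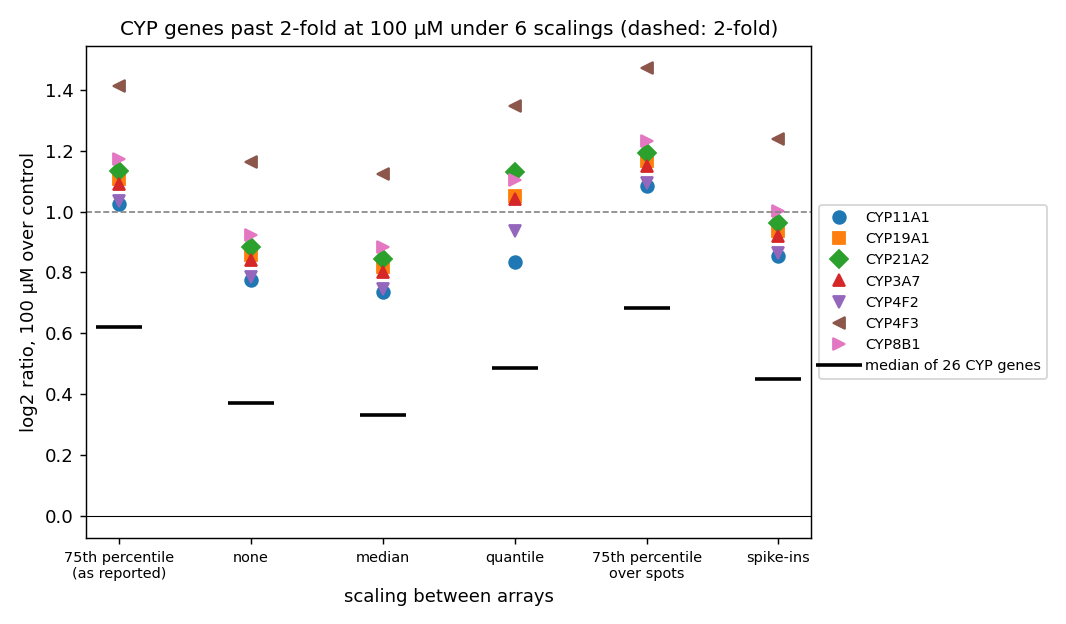
Log2 ratio of the high dose over control for the 7 CYP genes called at the high dose (symbols) and the median of the 26 detected CYP genes (bars) under 6 ways of scaling the arrays, with the 2-fold limit as a dashed line. CYP4F3 lies above the limit in each of them, and the other 6 genes lie below it with no scaling and with scaling to the array median.

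The CYP4F genes, which hydroxylate long-chain fatty acids, leukotrienes and vitamins E and K, held the largest ratio. CYP4F3, which inactivates leukotriene B4, had signals of 130.8 in control, 245.1 at 10 μM and 292.6 at 100 μM. It was thus highest at the high dose and lowest in control, at 1.80 times control at the low dose and 2.66 times at the high dose (log2 1.41 ± 0.11, spot SD). It was the only called CYP gene that lay more than 2 spot SDs above the 2-fold limit. CYP4F2, which starts the breakdown of vitamin K and makes 20-HETE from arachidonic acid, read 111.6, 153.6 and 192.3 on its brightest probe. It was 1.32 times control at the low dose and 2.05 times at the high dose (log2 1.03 ± 0.13).

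The remaining CYP4F genes were not called. CYP4F12 had signals of 370.1, 465.7 and 575.5, and CYP4F8, a prostaglandin hydroxylase, had 837.9, 1003 and 1280. Both followed the order control, low dose, high dose, and at the high dose they were 1.85 and 1.82 times control, within 2 spot SDs of the 2-fold limit. CYP4F11 read 60.4, 81.7 and 59.0, so that the low dose was the highest of the 3. CYP4A11, the omega-hydroxylase of medium-chain fatty acids, read 46.3, 34.1 and 52.4 and was lowest at the low dose (log2 -0.50 ± 0.31). The CYP4F genes lie next to each other, with probes between 15523720 and 15884422 on chromosome 19 (hg18), and the ratios of the 5 detected genes at the high dose ran from 0.22 to 1.41.

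CYP4F2 was measured by a pair of probes that gave different ratios, and their sequences are shown, together with that of CYP4F3, because the call of this gene turns on the probe. The first CYP4F2 probe is the brightest one and its listed span is longer than its 60 bases, from 15861494 to 15862171 on the minus strand, so it crosses an exon junction, and the second lies without interruption at chr19:15849846-15849905 on the minus strand. The CYP4F3 probe lies at chr19:15631754-15631813 on the plus strand. None of them shared a stretch of 20 bases with a probe of another name, and all letters are in lower case because no stretch is marked.
CYP4F2, brightest probe: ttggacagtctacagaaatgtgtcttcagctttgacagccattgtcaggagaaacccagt
CYP4F2, second probe: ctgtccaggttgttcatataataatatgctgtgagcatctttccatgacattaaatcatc
CYP4F3: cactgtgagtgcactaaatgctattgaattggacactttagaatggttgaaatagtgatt

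The second CYP4F2 probe had signals of 33.5 in control, 184.5 at 10 μM and 204.8 at 100 μM. It was far lower in control than at either dose, at 5.28 times control at the low dose (log2 2.40 ± 0.27) and 7.27 times at the high dose (log2 2.86 ± 0.27). Over the 6 scalings its ratio ran from 4.92 to 5.51 at the low dose and from 5.95 to 7.58 at the high dose. With another background correction (normexp) the ratios were 2.47 and 3.32. The control signal of this probe was not far above the lowest signal flagged as well above background on that array, 19.5. Whether the 2 probes read different transcripts of CYP4F2 was not tested.

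Among the 14 CYP genes with more than 1 probe, 8 had a pair well above background on all arrays. CYP19A1, CYP2D6 and CYP3A7 were 2.16, 1.88 and 2.13 times control on the brightest probe at the high dose, with second-probe values of 2.11, 1.85 and 2.002 times control. The second probe of CYP2B6 read 51.2, 88.4 and 80.2, which is 1.66 and 1.86 times control, where its brightest probe gave 1.04 and 1.11. The second probe of CYP20A1 read 331, 302 and 195, which is 0.700 times control at the high dose, where its brightest probe gave 1.02. The pairs of CYP24A1 and CYP2S1 stayed near 1 at the high dose, with second-probe ratios of 0.990 and 1.05.

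**Figure D3:**
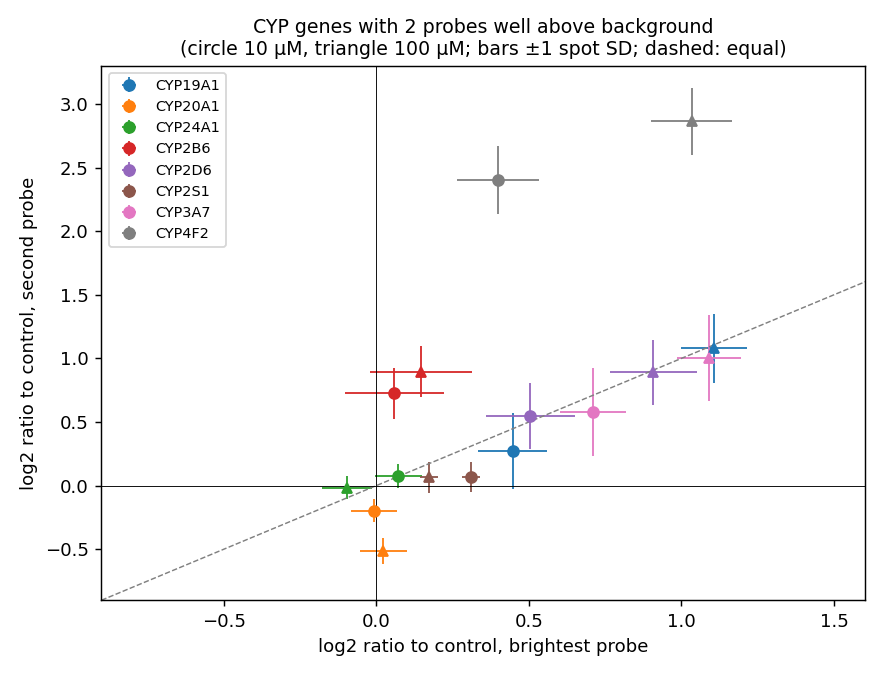
Log2 ratio to control of the brightest probe (x axis) and of the second probe (y axis) for the 8 CYP genes with a pair of probes well above background, at the low dose (circles) and the high dose (triangles), with bars of 1 spot SD and the line of equal ratios. CYP4F2 lies far above the line at both doses, with second-probe ratios of 2.40 and 2.86, and CYP2B6 lies above it and CYP20A1 below it.

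Of the 6 genes of steroid hormone synthesis, 4 were detected and 3 were called higher at the high dose, where 6.74% of all genes were. All 3 lay within 2 spot SDs of the 2-fold limit. CYP11A1 (NM_000781), the mitochondrial side-chain cleavage enzyme that turns cholesterol into pregnenolone, read 56.5, 68.8 and 96.6 and was 2.04 times control at the high dose (log2 1.03 ± 0.19). CYP21A2 (NM_000500), the steroid 21-hydroxylase, read 320.2, 284.4 and 590.9. Its signal was lowest at the low dose and highest at the high dose, at 0.851 and 2.19 times control, and the low dose was 0.388 times the high dose. CYP21A2 has a near-identical pseudogene next to it, so its signal is uncertain between the 2. CYP19A1 (NM_031226), the aromatase that converts androgens to estrogens, read 145.1, 206.3 and 263.0 and was 1.36 and 2.16 times control. CYP17A1, the 17-hydroxylase and lyase that leads to androgens, was not called, with signals of 271.5, 204.1 and 296.4 and the low dose lowest. The low dose against the high dose of CYP21A2 was past 2-fold under all 6 scalings. With the mean over the probes of a gene, the high-dose calls of CYP19A1 (log2 0.24) and CYP21A2 (0.97) were lost. These means took in a CYP19A1 probe not well above background on any array. They also took in a CYP21A2 probe well above background only at the high dose. With quantile normalization the high-dose call of CYP11A1 (0.84) was lost. With no scaling, median scaling or spike-in scaling, the high-dose calls of CYP11A1, CYP19A1 and CYP21A2 were all lost. Their high-dose ratios were past 2-fold under 2, 3 and 3 of the 6 scalings.

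Bile acid genes differed from one another. CYP8B1 (NM_004391), the sterol 12-hydroxylase that sets the share of cholic acid, read 134.3, 155.8 and 254.6. Control and low dose lay close together and the high dose stood above both, at 1.11 and 2.25 times control (log2 1.17 ± 0.11), and the low dose was 0.493 times the high dose. This last ratio was past 2-fold under 2 of the 6 scalings and ran from 0.47 to 0.612 over them. CYP27A1, the mitochondrial sterol 27-hydroxylase of the alternative pathway, was among the brightest CYP probes at 28008, 22923 and 24177, with log2 ratios of -0.35 and 0.04. CYP39A1, a 24-hydroxycholesterol 7-hydroxylase, read 77.5, 129.7 and 74.3 and was highest at the low dose, at 1.604 times control. CYP7A1, the rate-limiting enzyme of the classical pathway, was not above background on any array. CYP51A1, the lanosterol demethylase of cholesterol synthesis, read 3391, 2542 and 2729, so that control was highest (log2 -0.48 ± 0.07 at 10 μM and -0.06 ± 0.07 at 100 μM).

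All 3 vitamin D genes were detected and none was called. CYP24A1, which inactivates vitamin D, read 488, 536 and 384, with log2 ratios of 0.07 and -0.10. CYP2R1, a 25-hydroxylase, read 31.4, 31.4 and 46.4, with the same signal in control and at the low dose and a log2 ratio of 0.82 ± 0.32 at the high dose. CYP27B1, the 1-hydroxylase, read 38.0, 39.0 and 33.7, which differed by less than the spot SD after scaling.

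**Figure D4:**
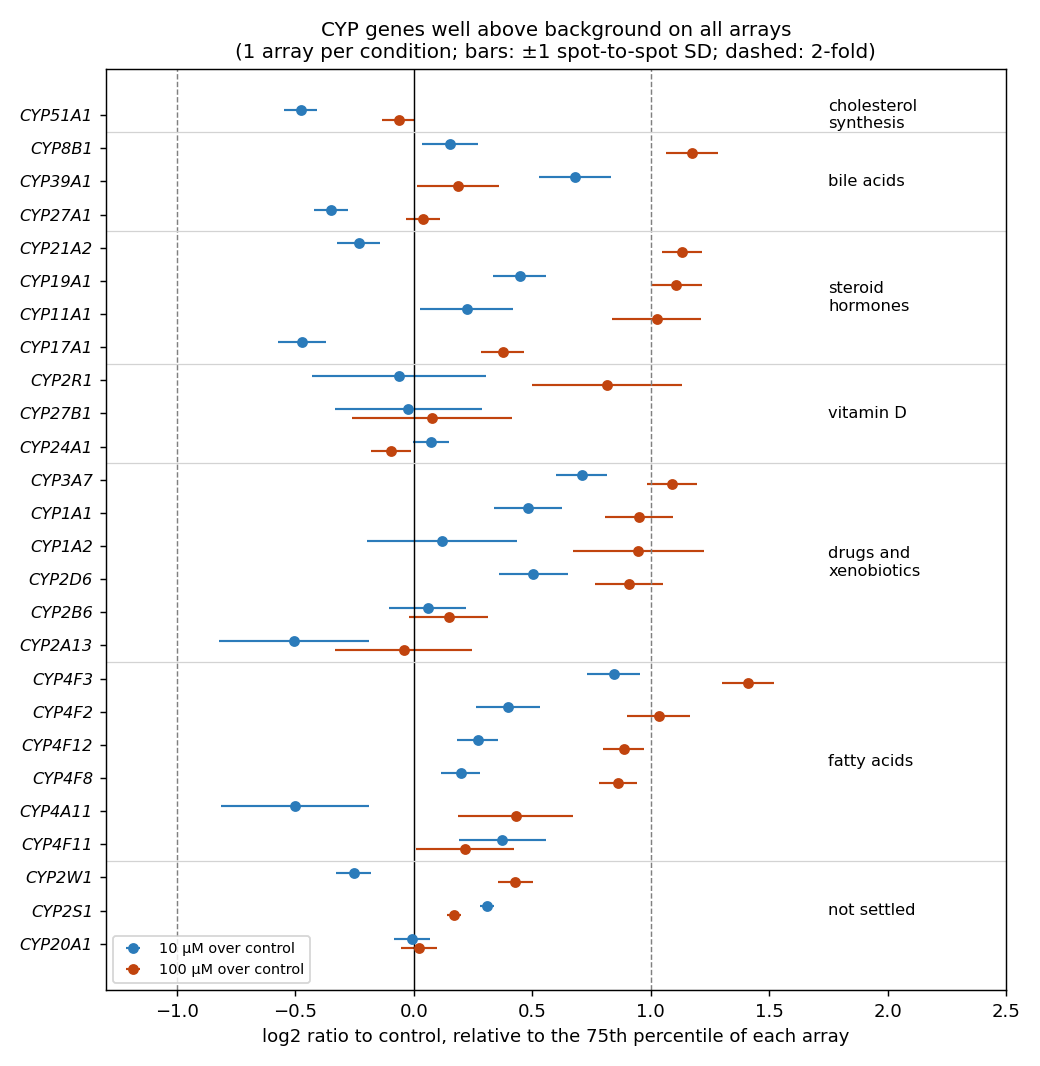
Log2 ratio to control at the low dose (blue) and the high dose (red) for the 26 CYP genes well above background on all arrays, grouped by role, with bars of 1 spot SD and dashed lines at 2-fold. No blue point reaches the 2-fold lines, and 7 red points lie beyond the upper one, 3 of them among the steroid hormone genes.

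Of the 15 genes of drug and xenobiotic metabolism, 6 were detected. CYP3A7 (NM_000765), the main P450 of fetal liver, read 159.9, 272.8 and 286.3. After scaling it was 1.64 and 2.13 times control, the low dose was 0.768 times the high dose, and only the high dose passed the limit. CYP1A1 and CYP1A2, the classical target genes of the aryl hydrocarbon receptor (AHR), were not called. CYP1A1 read 95.3, 138.9 and 154.8, at 1.40 and 1.93 times control, and CYP1A2 read 36.7, 41.6 and 59.6, at 1.09 and 1.93 times control. Both followed the order of dose and lay within 2 spot SDs of the limit at the high dose, as did CYP2D6, which oxidizes many basic drugs, at 92.4, 136.8 and 145.9 (1.88 times control). CYP2B6 read 93.9, 102.1 and 87.5 and CYP2A13, a nicotine-oxidizing enzyme of the airways, read 45.8, 33.7 and 37.4. These 2 genes lie in a chromosome 19 cluster with CYP2S1, and the 3 had ratios at the high dose between -0.04 and 0.17 on their brightest probes. The second CYP2B6 probe lay outside this range, at log2 0.90 ± 0.20 at the high dose.

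CYP1A1, CYP1A2 and CYP11A1 lie within 1 Mb of each other, between 72418071 and 72835978 on chromosome 15 (hg18), and their ratios at the high dose ran from 0.95 to 1.03. The core of the AHR response element, GCGTG on either strand, was looked for in RefSeq promoters (GRCh38.p14, from 250 bases before to 50 after the start), which were given for 36 of the 52 genes. It was found in 13 of the 36 (36.1%), against 40.6% of all genes in the table. CYP1A1 and CYP11A1 were among the 13, and CYP1A2 was not, although its promoter was among the 36. The promoter of CYP1A1 is shown because this gene is the reference target of AHR, at chr15:74725479-74725778 on the minus strand, with the motif in capitals.
CYP1A1: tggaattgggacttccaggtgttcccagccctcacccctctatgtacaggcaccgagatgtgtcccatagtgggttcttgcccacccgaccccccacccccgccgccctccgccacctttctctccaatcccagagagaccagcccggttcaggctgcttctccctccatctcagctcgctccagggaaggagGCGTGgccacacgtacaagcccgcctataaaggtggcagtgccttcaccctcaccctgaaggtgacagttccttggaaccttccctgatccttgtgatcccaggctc
The sterol response motif CACCCCAC was found in 2 of the 36 (CYP2A7 and CYP2W1) against 3.39% of all genes. A match of letters is a description and was not tied to a factor.

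CYP2W1, CYP2S1 and CYP20A1 have substrates that are not settled. CYP2W1, known as a tumor-associated P450, had the highest signal of the CYP probes at 110111, 96396 and 124716, with log2 ratios of -0.25 and 0.43. Its probe shares stretches of at least 20 bases with probes of other names. How much of this signal came from CYP2W1 was not tested. Of the 52 brightest probes, 49 shared no stretch of 20 bases with a probe of another name. Probes were not compared with transcripts, and the CYP21A2 probe was among the 49 despite the pseudogene of that gene. CYP2S1, read by 10 spots, had 297.4, 384.6 and 281.7, with log2 ratios of 0.31 ± 0.03 and 0.17 ± 0.03. These errors are for the mean of 10 spots. The second CYP2S1 probe, read by 1 spot, gave 0.07 ± 0.12 at the low dose. CYP20A1 read 1353, 1404 and 1157 on its brightest probe, which differed from control by less than the spot SD at both doses. Its second probe gave -0.51 ± 0.10 at the high dose.

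**Figure D5:**
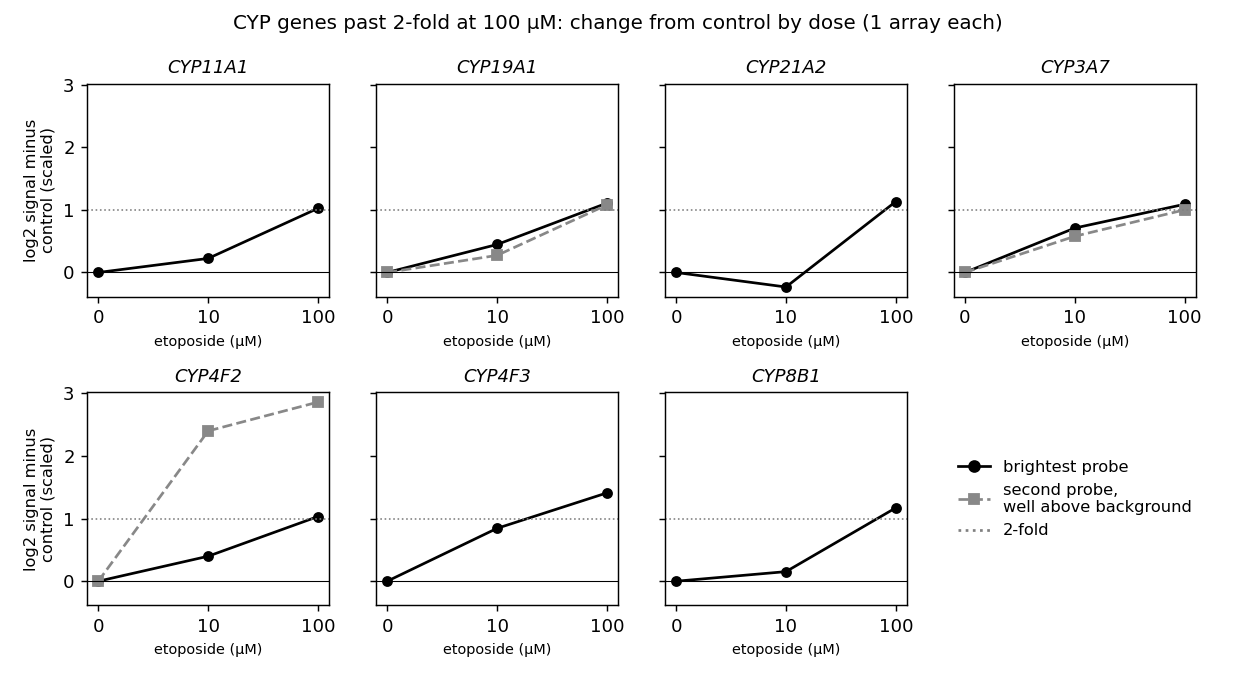
Change of the log2 signal from control against etoposide dose (0, 10 and 100 μM, 1 array each) for the 7 CYP genes called at the high dose, on the brightest probe (black) and, where well above background, a second probe (gray), with the 2-fold limit dotted. CYP4F3 rises in steps to 1.41, CYP21A2 and CYP8B1 lie near control at 10 μM and above 1 at 100 μM, and the second CYP4F2 probe reaches 2.40 at 10 μM.

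By order over the conditions after scaling to the 75th percentile, 12 of the 26 detected genes had control lowest and the high dose highest, and they included 6 of the 7 called genes. The high dose was the highest of the 3 in 20 genes, the low dose in 4 (CYP24A1, CYP2S1, CYP39A1 and CYP4F11) and control in 2 (CYP2A13 and CYP51A1). After the same scaling the low dose was the lowest of the 3 in 10 genes, CYP21A2 and CYP17A1 among them. With no scaling, as in the signals printed here, the high dose was highest in 16 genes, the low dose in 7 and control in 3, and the low dose was lowest in 8. Over the 6 scalings the high dose was highest in 16 to 21 genes. The share of all genes in each order was not counted. Of all genes, 57.3% were above control at the high dose after scaling to the 75th percentile. Called genes passed 2-fold over control at the high dose alone, which already puts that dose highest. For CYP20A1, CYP27A1, CYP27B1, CYP2A13, CYP2B6, CYP2S1, CYP39A1 and CYP4F11 the direction at the high dose flipped between scalings. The 22 detected microsomal genes had a median log2 ratio of 0.84 at the high dose with 6 called, and the 4 detected mitochondrial genes had a median of 0.06 with 1 called. Over all genes, 6.74% were called higher at that dose. The ranges overlapped, from -0.06 to 1.41 in the microsomal and from -0.10 to 1.03 in the mitochondrial genes. Whether the 2 groups differed was not tested.

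The partners of the P450 enzymes were read beside them. Of 7 electron donor genes, FDXR was the only one called, with signals of 27768, 102361 and 59825 and log2 ratios of 1.82 and 1.36. POR read 3820, 3593 and 3560 (log2 -0.15 and 0.15), FDX1 read 123.4, 107.4 and 95.1, and the lowest ratio at the high dose was that of PGRMC1 at -0.47. Of 10 genes of haem synthesis and breakdown, HMOX1, the haem oxygenase that degrades haem, was the only one called, at 1.02 at the high dose, and CPOX was lowest at -0.46. ALAS1, the first enzyme of haem synthesis in liver, read 822, 927 and 748.

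Of 15 receptors and cofactors that control CYP genes, none was called higher at either dose and 1 was called lower, at the low dose. This was NR1H4, the bile acid receptor FXR, which read 1217, 548 and 946 (log2 -1.21 and -0.11, and -1.10 for the low dose over the high dose). NR1I3, the receptor CAR, was well above background on 2 arrays and was called lower in low-dose than in high-dose cells, at 23.4, 12.4 and 36.7. AHR read 567, 1047 and 880, with log2 ratios of 0.82 and 0.88, and the lowest ratio at the high dose was that of RARG at -0.65.

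Genes listed as markers of other cell types moved with dose in part, although all cultures were of the HepG2 line. Whether any of their signal came from other cells was not tested. Of the 11, PECAM1, CDH5, PTPRC, CD3E, CD14 and CD68 were well above background on all arrays, VWF on 1, and the summed signal of the list was 1546 in control, 1978 at 10 μM and 2983 at 100 μM. CD14 read 521, 1184 and 1847, and without it, an alternative chosen after seeing the data, the sums of the other 10 were 1025, 794 and 1136. CD68 had log2 ratios of 0.40 and 1.49, PTPRC of -1.03 and 0.41, and PECAM1 of -0.73 and -0.48. The summed signal of the hepatocyte markers was 455528, 479446 and 489436, with TTR called higher at the high dose (1.11). The part of either list in the CYP ratios was not tested. In RNA from a whole culture, fewer cells of a type and less RNA per cell cannot be told apart.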

How the data were processed

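RNA of each condition was labeled with Cy3 and hybridized to a 1-color Agilent whole human genome array. The deposited values are spot intensities (gProcessedSignal) that the authors obtained with Agilent Feature Extraction 10.7.3.1, which subtracts background but does not scale arrays to each other. All 44495 spots of an array equal the deposited series table. Outlier and control spots were left out, repeated spots of the 34127 probes were averaged, and log2 intensity minus the 75th percentile of each array was compared (Python 3.11.15, numpy 2.4.6, pandas 2.3.3). A signal not well above background was raised to the lowest one that was. Spot SDs came from the 50 repeated probes nearest in signal. The steps were tested on simulated data. limma 3.58.1 (R 4.3.3) gave the quantile and normexp alternatives. Members, roles, partner and marker lists were chosen with earlier results of these data known. Values on all arrays were given for called members, the brightest ones and detected members with a described role, and members below background were named only. All 52 members matched RefSeq by accession. CYP3A4, CYP3A5 and CYP4Z2P were left out by the rule. Single arrays limit the precision. One member and one probe sequence are not reported here.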

Additional observations from a re-analysis of the deposited data

Results flagged for a closer look

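Probes that were not the brightest of their gene were not used for the calls, and 3 of them were more than 2-fold above control. The second probe of CYP4F2 was 5.28 times control at the low dose and 7.27 times at the high dose. The second probe of CYP19A1 was 2.11 times control at the high dose, and that of CYP3A7 was 2.002 times control at the high dose. Over the 6 scalings the CYP19A1 value ran from 1.73 to 2.20 and the CYP3A7 value from 1.58 to 2.09, and with normexp they were 1.56 and 1.42.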

How the results depend on the processing

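No paired analysis was possible because there was a single array for each condition. Of 13 alternatives, keeping outlier spots, the series table and only genes above background on all arrays left every count of CYP calls as given. Against 7 called higher at the high dose, there was 1 with no scaling and 1 with median scaling, 2 with spike-in scaling, 2 with normexp, 5 with quantile normalization (CYP11A1 and CYP4F2 lost), 5 with the mean over probes (CYP19A1 and CYP21A2 lost), 9 with the percentile over all spots (CYP1A1 and CYP1A2 gained), 13 at 1.5-fold, 0 at 3-fold and 15 without the filter on dim probes. The share of all genes called higher there was 3.73%, 3.45%, 4.42% and 2.25% in the first 4 of these settings. It was 4.59% with quantile normalization, 6.54% with the mean over probes and 7.75% with the percentile over all spots. At 1.5-fold it was 18.4%, at 3-fold 1.84% and without the filter 11.9%. Without the filter all 52 CYP genes could be called. Calls higher at the low dose (0) became 3 at 1.5-fold, 1 with the mean over probes and 2 without the filter, which also gave 1 called lower at either dose against control. Calls lower in low-dose than in high-dose cells (2) became 1, with CYP8B1 lost, under no scaling, median scaling, quantile normalization, spike-in scaling or normexp, 12 at 1.5-fold, 12 without the filter and 0 at 3-fold. Of all genes, 1.7%, 1.86%, 2.31%, 2.02% and 0.899% were called lower in the first 5 of these settings, in the same order. The share was 14.2% at 1.5-fold, 9.37% without the filter and 0.84% at 3-fold. The CYP median at the high dose (0.62) was 0.37 with no scaling, 0.33 with median scaling, 0.49 with quantile normalization, 0.45 with spike-in scaling, 0.45 with normexp and 0.48 with the mean over probes. The median of the low over the high dose (-0.52) was -0.21 with no scaling, -0.25 with median scaling and -0.29 with spike-in scaling. No called CYP gene changed sign. Calls higher and lower over all genes at the high dose were 586 and 1181 with median scaling, 780 and 785 with quantile normalization, 750 and 914 with spike-in scaling, 382 and 419 with normexp, 3121 and 1643 at 1.5-fold, 313 and 278 at 3-fold and 3242 and 1049 without the filter. The causes were not tested. Signals near background and the single array per condition limit the dim genes.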
